A study of Homo sapiens with 6 samples.

Results

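The Wnt ligands, their Frizzled receptors and co-receptors and the secreted antagonists of the pathway were examined in LX-2 cells, a human hepatic stellate line, treated with BMP9. Members were defined by gene symbol, with earlier results of these data known: every probe set that the platform annotation assigns to exactly 1 gene, where that gene is a WNT, FZD, DKK or SFRP gene or WIF1, FRZB, LRP5, LRP6, ROR1, ROR2, RYK, AXIN2, LEF1 or TCF7. This gave 108 of the 49293 probe sets outside the array controls, and 45 of the 18132 genes with a probe set of their own. WNT3 was left out because its 2 probe sets carry a second symbol, and TCF7 was not analysed here. The BMP9 group was 3 samples given 50 ng/ml recombinant human BMP9 for 24 h and the control group was 3 samples given 0 ng/ml for 24 h, all after 12 h without serum. LX-2 is a single line, so no spread between donors was measured, and the labels call the samples biological replicates without saying whether they were separate cultures. P-values therefore measure the spread between these samples.

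Wnt proteins are secreted, lipid-modified ligands that bind Frizzled receptors on the cell surface. Together with the co-receptors LRP5 and LRP6, Frizzled binding stabilises beta-catenin, which then activates transcription with TCF/LEF factors and raises feedback genes such as AXIN2. ROR1, ROR2 and RYK are receptors best known from the beta-catenin-independent branches. Proteins of the SFRP family, FRZB and WIF1 bind Wnt ligands outside the cell, whereas DKK1, DKK2 and DKK4 bind LRP5 and LRP6. Hepatic stellate cells become matrix-producing myofibroblasts in liver fibrosis, and Wnt signalling has been studied there as a regulator of that transition. BMP9 is encoded by GDF2 and acts through receptors that phosphorylate SMAD1/5/9.

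Values are RMA expression values on the log2 scale, 1 array per sample, so a difference of 1 is a doubling. The array medians lay between 3.55 and 3.57, and Pearson's r across genes was 0.994 to 0.995 within BMP9, 0.993 to 0.994 within control and 0.991 to 0.993 between the groups. The files hold no detection calls. The array's 23 background probe sets, which are named by GC number, had means of 1.67 to 10.0, and the group means of all 45 member genes lay below the highest of these. So did those of the stellate marker COL1A1, at 9.79 in BMP9 and 9.73 in control. Genes were not matched to background probe sets by GC number, so the comparison cannot tell which members, if any, lie above background. Of 14 stellate markers 1 was called, COL3A1 at -1.29 (limma adjusted p = 2.35e-05), and VIM stood at 11.2 to 11.3 in BMP9 and 11.5 to 11.7 in control, while ACTA2 (3.81 to 4.19) and LUM were dim. Summed on the linear scale, the stellate list lay at 4454 to 4597 in BMP9 and 5135 to 5387 in control, without overlap. VIM, the brightest marker, carried this gap: the other 13 summed to 2062 to 2177 in BMP9 and 2052 to 2226 in control. The 14 stellate markers had 9 positive and 5 negative log2 differences, with a median of 0.054. The 7 hepatocyte markers summed to 161 to 171 in BMP9 and 163 to 171 in control, and the 6 endothelial markers to 181 to 193 in BMP9 and 178 to 195 in control. The 6 macrophage and leukocyte markers summed to 137 to 181 in BMP9 and 163 to 173 in control, and the 5 cholangiocyte markers to 64.9 to 70.9 in BMP9 and 64.2 to 72.1 in control. None of these 4 lists held a called gene, and their sums overlapped between the groups. The part of these shifts in the results below was not tested.

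With BMP9, the receptor gene FZD2 fell 1.5-fold and was the single member gene past the threshold, a limma adjusted p under 0.05 over all 18132 genes. FZD4, another receptor, had the largest positive difference, 0.37, and missed the threshold (limma adjusted p = 0.0565). No Wnt ligand, co-receptor or antagonist was called when each gene was represented by its brightest probe set, the one with the highest mean over the 6 arrays. When every probe set was tested on its own, a second Frizzled gene, FZD5, had 1 probe set lower and the ligand gene WNT4 had 1 probe set higher, in each case without the gene's other probe sets passing. Because whole cultures were measured, fewer cells expressing a gene and less RNA per cell cannot be told apart.

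In numbers, 1 of 45 member genes was called, 0 higher and 1 lower, against 0.684% of all genes (0.232% higher and 0.452% lower). At an unadjusted p under 0.05 the members numbered 2 at their brightest probe sets, FZD2 and FZD4, against 12.9% of all genes. The 3 BMP9 arrays lay wholly to one side of the 3 control arrays in 7 member genes (15.6%), namely FZD2, FZD4, FZD5, ROR1, WIF1, WNT5B and WNT6, against 18.8% of all genes. Differences were positive in 21 members and negative in 24, with a median of -0.015 on the log2 scale beside 0.014 over all genes. Signs are relative to the deposited scale. Scaled to the array's hybridisation controls, which brought the median difference of all genes to 0.23, 4 members stayed negative (FZD2, FZD10, FZD6 and WNT8A). Scaled to its poly-A controls, which brought that median to 0.55, FZD2 alone did. A difference smaller than 0.2 in size was found in 38 members, and the 95% interval lay within 0.5 of 0 in 40 of 45. The median standard error (SE) was 0.085 for the members and 0.0875 for all genes. Among probe sets, 3 of 108 were called, 1 higher and 2 lower, against 0.41% of all probe sets (0.134% higher and 0.276% lower). Groups were without overlap in 26 (24.1%), against 17.3%. An unadjusted limma p under 0.05 was found in 19 of the 108, against 5601 of all 49293 probe sets.

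**Figure D1:**
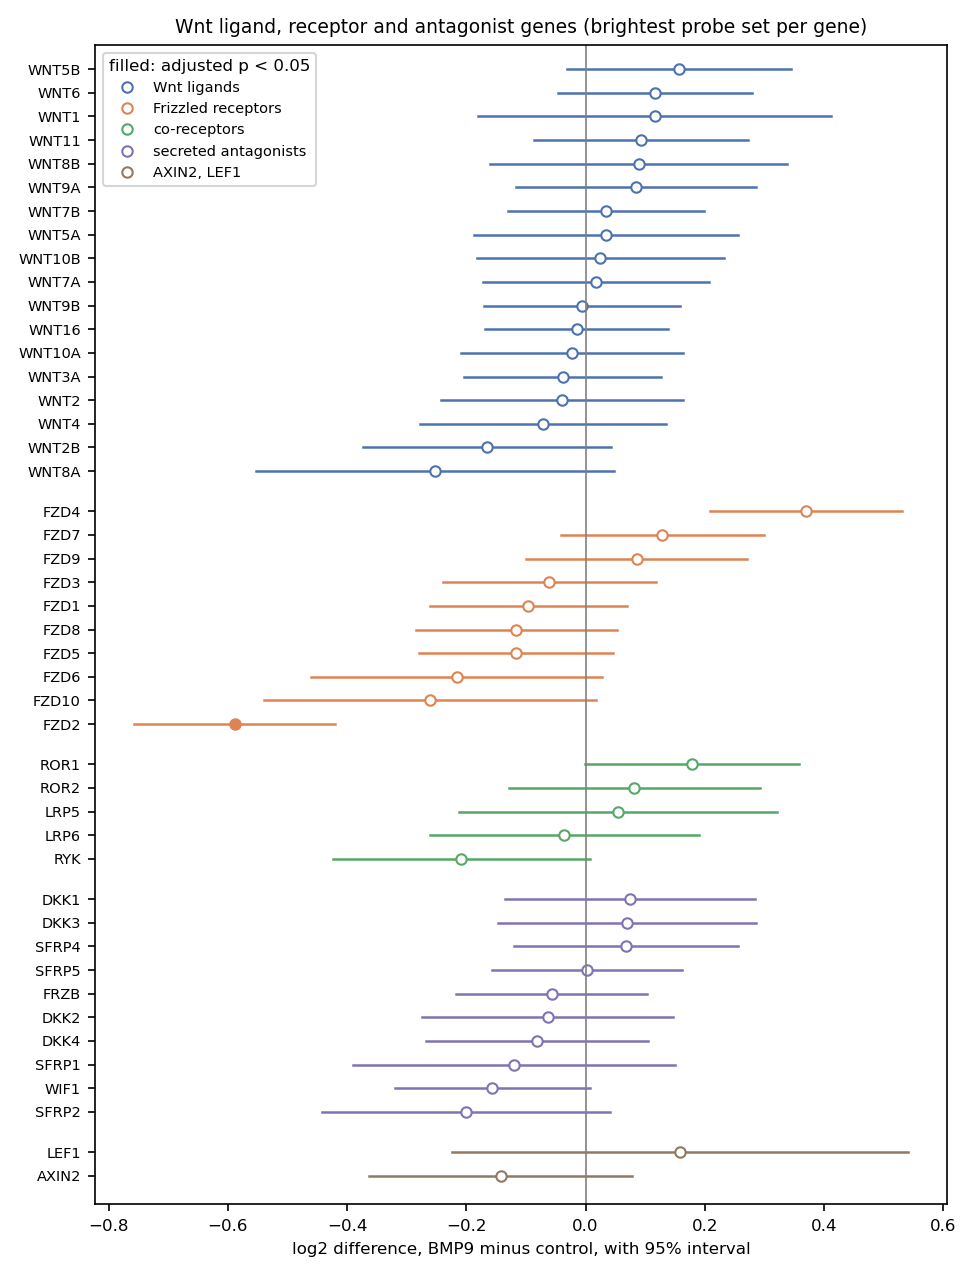
Log2 difference, BMP9 minus control, for the 45 member genes by role, with limma's 95% interval, each gene at its brightest probe set. FZD2 at -0.59 is the filled point past the threshold, FZD4 at 0.37 is the open point farthest to the right, and the intervals of the other 43 members include 0; all points but FZD2 turn positive with poly-A scaling.

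Upstream sequence is given below for FZD4, the member gene of second smallest p, and for FZD5 and WNT4, which each have 1 called probe set (RefSeq, GRCh38.p14). FZD2 is named only. Each line is the 250 bases before the annotated start, 5′ to 3′ on the minus strand, at chr11:86955396-86955645 for FZD4, chr2:207769907-207770156 for FZD5 and chr1:22143098-22143347 for WNT4. Capitals mark GGCGCC, the palindromic GC-rich element known to bind SMAD1 and SMAD5.
FZD4: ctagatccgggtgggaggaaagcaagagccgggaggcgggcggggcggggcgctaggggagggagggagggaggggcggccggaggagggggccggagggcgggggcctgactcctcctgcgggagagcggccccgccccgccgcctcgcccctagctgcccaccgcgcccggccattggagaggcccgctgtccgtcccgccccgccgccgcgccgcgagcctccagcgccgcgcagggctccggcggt
FZD5: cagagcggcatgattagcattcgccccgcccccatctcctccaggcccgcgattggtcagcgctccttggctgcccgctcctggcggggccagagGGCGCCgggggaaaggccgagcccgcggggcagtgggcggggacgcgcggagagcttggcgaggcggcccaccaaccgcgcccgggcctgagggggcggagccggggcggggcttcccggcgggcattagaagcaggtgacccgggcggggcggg
WNT4: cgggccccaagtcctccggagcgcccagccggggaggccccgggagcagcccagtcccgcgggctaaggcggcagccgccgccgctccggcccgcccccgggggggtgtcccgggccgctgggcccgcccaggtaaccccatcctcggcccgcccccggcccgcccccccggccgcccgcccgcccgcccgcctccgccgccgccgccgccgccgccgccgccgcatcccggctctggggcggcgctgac
The FZD5 window held 1 match, at position -155 from the annotated start, and the FZD4 and WNT4 windows held 0. Searched on both strands, GGCGCC was present in 11 of 34 member promoters (32.4%, from 31 genes) and in 16.4% of 35116 RefSeq promoters of the same length. The SMAD-binding core CAGAC or GTCTG was present in 14 of 34 (41.2%) against 38.0%, and the TCF/LEF core CTTTGA or TCAAAG in 1 of 34, that of DKK1, against 11.2%. The 3 printed windows held neither of the other cores, so no matches overlap there. Base composition differed between the sets: the median GC content was 71.8% in member promoters and 58.0% in all promoters, and was 80.8% for FZD4, 76.8% for FZD5 and 86.8% for WNT4. A match describes the letters of the window and not bound protein.

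The Frizzled receptors held 10 genes, with 3 positive and 7 negative differences and a median of -0.11 on the deposited scale, where poly-A scaling left FZD2 as the 1 negative. FZD2, a receptor studied mainly with WNT5A, has 1 probe set on the array. Its values were 7.27, 7.25 and 7.26 in BMP9, against 7.74, 7.88 and 7.92 in control. All BMP9 arrays were below all control arrays, and the BMP9 arrays lay closer to each other than the control arrays did. The means were 7.26 ± 0.0081 in BMP9 and 7.85 ± 0.092 in control (SD, n = 3 each), a difference of -0.59 (SE 0.076, 95% interval -0.76 to -0.42, limma adjusted p = 0.00565). By size it ranked 44 among the 82 falling genes, whose median size was 0.61. FZD2 was called in 15 of 16 alternatives, including all 6 that left out an array (-0.64 to -0.55). Tested among all probe sets its adjusted p was 0.00874, and there the call ended without BMP9 replicate 2 (0.0612) or BMP9 replicate 3 (0.0549). Scaled to the poly-A control probe sets, which shifts all genes upward, the difference was -0.057 (limma adjusted p = 0.739).

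FZD4 is a receptor for Wnt ligands and for norrin and is known for its role in retinal blood vessels. Its brightest probe set read 5.40, 5.33 and 5.38 in BMP9, against 5.06, 4.96 and 4.97 in control. All BMP9 arrays were above all control arrays. The means were 5.37 ± 0.037 in BMP9 and 5.0 ± 0.057 in control (SD, n = 3 each), a difference of 0.37 (SE 0.072, 95% interval 0.21 to 0.53), or 1.29-fold. The gene passed when genes under a mean of 5 were left out (limma adjusted p = 0.00862) and with an intensity trend and robust prior (0.0297), and its adjusted p ranged from 0.00862 to 0.255 over 13 alternatives, control scaling not included. Averaged over the gene's probe sets the difference was 0.18 (limma adjusted p = 0.255). The other FZD4 probe sets differed by 0.090 and 0.075. FZD4 and FZD2 lay on opposite sides of 0, and their difference within each array, FZD4 minus FZD2, was -1.87, -1.92 and -1.88 in BMP9 against -2.68, -2.91 and -2.95 in control. This contrast was chosen after the values were seen and does not depend on the scaling of the arrays. It differed by 0.96 with an exact two-sided permutation p of 0.1, the smallest that 3 against 3 arrays allow. Both genes already separated the groups, in opposite directions, so this p was fixed by the choice of genes and adds no evidence.

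**Figure D2:**
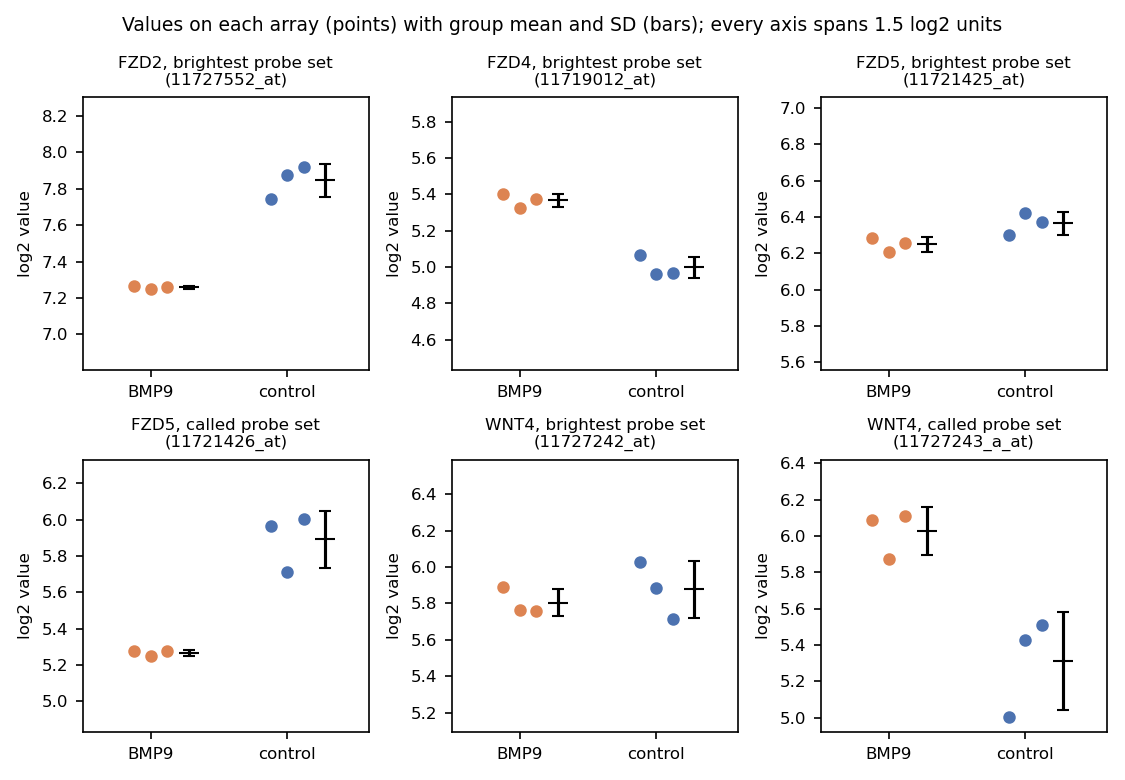
Log2 value on each array (points) with group mean and SD (bars), BMP9 left of control, for FZD2, FZD4 and both the brightest and the called probe sets of FZD5 and WNT4, each on a log2 axis of the same span. FZD2 is lower on all BMP9 arrays (7.25 to 7.27) than on all control arrays (7.74 to 7.92), and FZD4 is higher on all of them. The brightest WNT4 probe set overlaps between the groups and its called one does not.

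FZD5 has 5 probe sets, all with negative differences, of which 1 was called. That probe set read 5.28, 5.25 and 5.28 in BMP9, against 5.96, 5.71 and 6.0 in control. The groups did not overlap. The means were 5.27 ± 0.017 in BMP9 and 5.89 ± 0.16 in control (SD, n = 3 each), a difference of -0.62 (SE 0.092, 95% interval -0.83 to -0.42, limma adjusted p = 0.0153 among all probe sets tested). The brightest FZD5 probe set read 6.29, 6.21 and 6.26 in BMP9, against 6.30, 6.42 and 6.37 in control, close but without overlap, and differed by -0.12 (limma adjusted p = 0.542). The remaining probe sets differed by -0.20, -0.16 and -0.015. Within each array, the called probe set minus the brightest was -1.01, -0.96 and -0.98 in BMP9 against -0.34, -0.71 and -0.37 in control. This was a change of -0.51 (exact two-sided permutation p = 0.1, the smallest possible, contrast chosen after the values were seen). The called FZD5 probe set was picked for its difference between the groups, so this p adds no evidence. Of the 6 fits that left out an array the call held in 1, without control replicate 2 (limma adjusted p 0.0111 to 0.0932 over the 6), and the difference was -0.091 with poly-A scaling.

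The other Frizzled genes did not pass. FZD10 read 3.87, 4.14 and 4.28 in BMP9, against 4.17, 4.34 and 4.57 in control, overlapping groups with a difference of -0.26 (limma adjusted p = 0.420). FZD6, known from planar polarity of hair and skin in mice, read 2.59, 2.46 and 2.40 in BMP9, against 2.67, 2.50 and 2.93 in control (-0.22, limma adjusted p = 0.447). FZD7 read 4.79, 4.84 and 4.94 in BMP9, against 4.71, 4.80 and 4.69 in control (0.13, limma adjusted p = 0.516). A dimmer FZD7 probe set, at 2.97 in BMP9 and 2.50 in control, differed by 0.47 without overlap and did not pass either (limma adjusted p = 0.173). At their brightest probe sets, FZD1, FZD3, FZD8 and FZD9 differed by -0.12 to 0.086. A dimmer FZD3 probe set differed by 0.29 without overlap (limma adjusted p = 0.193), opposite in sign to the brightest at -0.061. The remaining FZD3 probe set differed by 0.004. Dimmer probe sets of FZD1 and FZD8 differed by -0.29 and -0.19 with overlap (limma adjusted p = 0.339 and 0.513).

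Among co-receptors and other Wnt receptors, 0 of 5 genes were called, against 0.684% of all genes, with 3 positive and 2 negative differences. LRP5 and LRP6, the co-receptors of the beta-catenin branch, differed by 0.055 (95% interval -0.21 to 0.32) and -0.036 (-0.26 to 0.19) at their brightest probe sets. The other LRP6 probe sets differed the other way, by 0.22 without overlap (limma adjusted p = 0.390) and by 0.16 with overlap. ROR1, a receptor tyrosine kinase-like protein that binds WNT5A, read 4.2, 4.03 and 4.17 in BMP9, against 4.02, 3.87 and 3.96 in control. The lowest BMP9 array was just above the highest control array, and the difference was 0.18 (limma adjusted p = 0.390) with 0.17 in the gene's other probe set. RYK, a receptor with an inactive kinase domain, read 2.34, 2.32 and 2.10 in BMP9, against 2.56, 2.51 and 2.31 in control, a difference of -0.21 (limma adjusted p = 0.404) with overlapping groups. ROR2, the co-receptor gene with the highest signal, read 4.52, 4.46 and 4.78 in BMP9, against 4.47, 4.48 and 4.56 in control (0.082). Its other probe sets differed by 0.066 and -0.21, each without overlap and not called (limma adjusted p = 0.783 and 0.385).

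At their brightest probe sets, the 18 Wnt ligand genes had 10 positive and 8 negative differences, with a median of 0.021. They ranged from -0.25 in WNT8A to 0.16 in WNT5B, and none passed even at an unadjusted p under 0.05. Group means ran from 3.12 to 6.55. Of the 38 ligand probe sets, 6 had an unadjusted limma p under 0.05, with both signs, in WNT4, WNT5A, WNT8A, WNT11 and WNT16. Dimmer probe sets of WNT11 and WNT16 differed by -0.26 and -0.18 without overlap (limma adjusted p = 0.341 and 0.403). WNT4, a ligand known from kidney tubule and female gonad development, has 3 probe sets. Its brightest read 5.80 ± 0.073 in BMP9 and 5.88 ± 0.16 in control (SD, n = 3 each), a difference of -0.072 (limma adjusted p = 0.796). Another WNT4 probe set read 6.09, 5.87 and 6.11 in BMP9, against 5.01, 5.43 and 5.51 in control, with all BMP9 arrays above all control arrays. Its means were 6.02 ± 0.13 in BMP9 and 5.31 ± 0.27 in control (SD, n = 3 each), a rise of 0.71 (SE 0.13, 95% interval 0.43 to 0.99, limma adjusted p = 0.0489 among all probe sets tested). The third probe set differed by -0.067. The call ended whichever array was left out (0.56 to 0.81, limma adjusted p 0.0562 to 0.225), with the replicate number as a block (0.0692), and with quantile normalisation or median centring (0.0515 and 0.0509). Within each array, the called probe set minus the brightest was 0.20, 0.11 and 0.35 in BMP9 against -1.02, -0.46 and -0.21 in control. This was a change of 0.78 (exact two-sided permutation p = 0.1, the smallest possible, contrast chosen after the values were seen). The called WNT4 probe set was picked for its difference between the groups, so this p adds no evidence.

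WNT8A, best known from early embryos, read 3.21, 2.97 and 3.18 in BMP9, against 3.18, 3.24 and 3.71 in control (-0.25, limma adjusted p = 0.467). 1 control array stood above the rest, and without it, control replicate 3, the difference was -0.085. The gene's other probe set differed by -0.26 without overlap (limma adjusted p = 0.232). WNT5B, a ligand of the beta-catenin-independent branches, read 4.49, 4.41 and 4.32 in BMP9, against 4.30, 4.32 and 4.13 in control. The groups met at 4.32 without overlapping and differed by 0.16 (limma adjusted p = 0.470). WNT2B read 4.96, 4.99 and 4.80 in BMP9, against 4.94, 5.23 and 5.07 in control (-0.17, limma adjusted p = 0.491). WNT9B, the ligand gene with the highest signal, read 6.54, 6.56 and 6.53 in BMP9, against 6.64, 6.49 and 6.51 in control, a difference of -0.0062. WNT5A had 5 probe sets whose differences ran from -0.29 to 0.21, none of them called.

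At their brightest probe sets, the 10 secreted antagonists had 4 positive and 6 negative differences between -0.20 and 0.074. None was called (0 of 10), against 0.684% of all genes. Their 23 probe sets ran from -0.20 to 0.29, the highest in SFRP4 with overlapping groups (limma adjusted p = 0.344). WIF1, a Wnt-binding inhibitor, read 1.92, 1.89 and 1.89 in BMP9, against 2.12, 2.08 and 1.97 in control. These values are among the dimmest of the members and differed by -0.16 without overlap (limma adjusted p = 0.410). SFRP2 read 3.92, 3.58 and 3.72 in BMP9, against 3.85, 4.12 and 3.85 in control (-0.20, limma adjusted p = 0.475). DKK1, which blocks LRP5 and LRP6, differed by 0.074 in its 1 probe set. DKK3, a divergent member of the DKK family, had the highest signal of the group at 6.10, 6.0 and 6.19 in BMP9, against 5.85, 6.04 and 6.19 in control (0.069). Its 6 probe sets ran from -0.032 to 0.23, the last without overlap (limma adjusted p = 0.349), and none was called.

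AXIN2 and LEF1, read as outputs of the beta-catenin branch in many tissues, were not called. AXIN2, a negative feedback gene, differed by -0.14 (3.12 ± 0.085 in BMP9 and 3.26 ± 0.18 in control, SD, n = 3 each, limma adjusted p = 0.586). Its 3 probe sets were all negative, the others at only -0.049 and -0.0019 (limma adjusted p = 0.906 and 0.996). LEF1, a TCF/LEF transcription factor, read 3.89, 3.57 and 3.63 in BMP9, against 4.0, 3.27 and 3.35 in control. Its control arrays spanned more than the difference of 0.16 between the groups (limma adjusted p = 0.747), and its 9 probe sets ran from -0.20 to 0.30 with none called. Dimmer LEF1 probe sets differed by 0.30, 0.23, 0.18 and -0.13 without overlap (limma adjusted p = 0.217, 0.336, 0.4165 and 0.549), and the others overlapped.

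Probe sets of the same gene often disagreed in sign. Of 30 member genes with more than 1 probe set, all probe sets shared a sign in 14 and both signs occurred in 16, and the median spread between a gene's highest and lowest difference was 0.21. Most differences were small, below 0.2 in size in 85 of the 108 member probe sets. The same counts were not made over all genes, so the disagreement is not shown to be particular to the members. Probe sets of a gene interrogate different stretches of its transcripts, and which stretches these are was not analysed here.

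**Figure D3:**
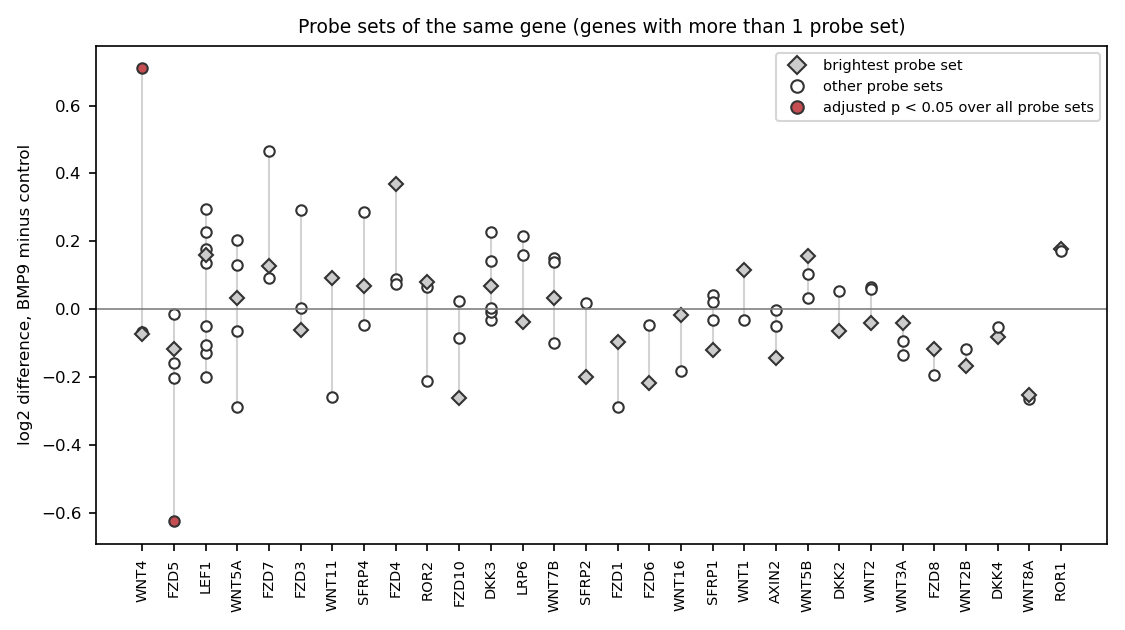
Log2 difference, BMP9 minus control, of every probe set of the member genes with more than 1 probe set, with diamonds for the brightest probe set and red points past the threshold among all probe sets. FZD5 has 1 red point at -0.62 and WNT4 has 1 at 0.71, away from the other probe sets of the same gene.

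Of 86 other genes of the Wnt pathway, listed by function, 84 were measured and 0 passed by limma, against 0.684% of all genes. At an unadjusted p under 0.05 there were 18, against 12.9% of all genes, and 27 (32.1%) had groups without overlap, against 18.8%. Differences were positive in 43 and negative in 41, with a median of 0.033, and all 84 were positive with poly-A scaling. Among secretion and extracellular regulators (14 genes, median -0.036) the glypican genes GPC4 and GPC6, which encode cell-surface heparan sulphate proteoglycans, had the smallest p. GPC4 read 4.52, 4.70 and 4.54 in BMP9, against 4.97, 4.97 and 5.01 in control, a difference of -0.39 (limma adjusted p = 0.0577). GPC6 read 5.47, 5.26 and 5.17 in BMP9, against 4.94, 4.73 and 4.84 in control, a difference of 0.46 (limma adjusted p = 0.0697). The groups did not overlap in either gene, and the pair differed in opposite directions.

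In the list of feedback and transcriptional targets (17 genes, median -0.027), JUN, a subunit of AP-1, read 8.24, 8.23 and 8.15 in BMP9, against 8.54, 8.63 and 8.52 in control (-0.36, limma adjusted p = 0.0697). Dimmer JUN probe sets differed by -0.56 and -0.47 without overlap (limma adjusted p = 0.0759 and 0.103), and the dimmest by 0.040 with overlap. TWIST1, a basic helix-loop-helix factor, read 4.31, 4.44 and 4.42 in BMP9, against 4.76, 4.67 and 4.77 in control (-0.34, limma adjusted p = 0.087). At the brightest probe sets of JUN and TWIST1, all BMP9 arrays were below all control arrays. Among nuclear effectors and co-factors (13 genes, median -0.011) the corepressor gene TLE1 differed by 0.31 (limma adjusted p = 0.212) and CTNNBIP1, an inhibitor of beta-catenin, by 0.20 (0.325). Among canonical transducers (14 genes, median -0.027) the casein kinase gene CSNK1G1 differed by -0.28 (limma adjusted p = 0.212) and FRAT2, which binds GSK3, by 0.17 (0.409). In the planar polarity list (17 genes, median 0.049) the cadherin gene CELSR3 differed by -0.21 (limma adjusted p = 0.326) and INVS by 0.19 (0.351). In the R-spondin, LGR and ubiquitin ligase module (9 genes, median 0.062) ZNRF3, a ligase that removes Frizzled from the cell surface, differed by -0.21 (limma adjusted p = 0.397) and the receptor gene LGR6 by 0.16 (0.404).

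Tested as 266 single probe sets, these genes gave 1 higher and 1 lower call, against 0.134% higher and 0.276% lower of all probe sets; both were chosen for mention after their values were seen. A probe set of LGR4, an R-spondin receptor gene, read 3.41, 3.72 and 3.54 in BMP9, against 2.66, 2.72 and 2.75 in control. This was a rise of 0.85 (SE 0.092, limma adjusted p = 0.00274) that held in 12 of 12 alternatives. The setting without shared probes and both minimum means left this LGR4 probe set out, so it was not tested there. The brightest LGR4 probe set differed by 0.031. A second probe set of GPC4 read 3.19, 3.25 and 3.43 in BMP9, against 3.91, 3.93 and 3.71 in control, a fall of 0.56 (limma adjusted p = 0.0313) that held in 6 of 13 alternatives. Both minimum means left out this probe set too.

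**Figure D4:**
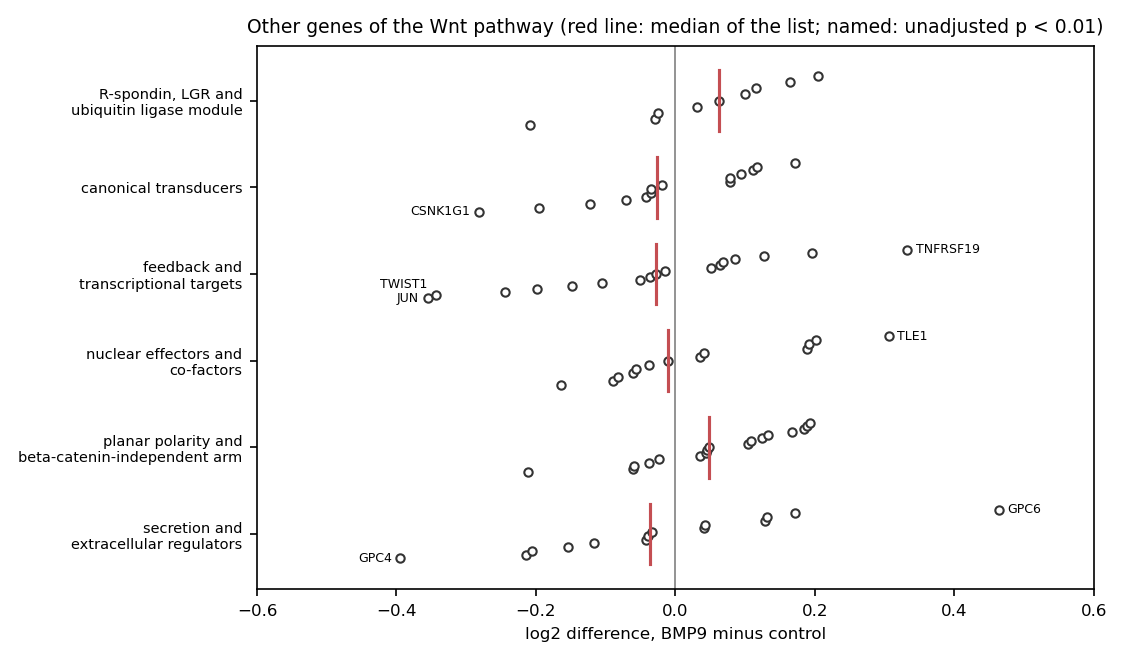
Log2 difference, BMP9 minus control, of the 84 other pathway genes by list, with the median of each list as a red line and genes of unadjusted p under 0.01 named. On the deposited scale the points lie on both sides of 0 in each list, between GPC4 at -0.39 and GPC6 at 0.46.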

How the data were processed

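RNA from 3 BMP9 and 3 control samples was hybridised to Affymetrix 3′ IVT arrays. The deposited log2 values, 1 for each probe set on each array, come from RMA per the submitters' processing notes. Its version is not given in the sources used here. Base 2 was assumed from the range of the values and RMA's usual output. RMA with quantile normalisation largely removes a change shared by most transcripts. The probe set of highest mean stood for each gene, among those annotated to that gene alone (18132 genes), and all 49293 probe sets outside the 102 array controls were also tested singly. The groups were compared in limma 3.58.1 (R 4.3.3, constant prior, no covariate, 6.13 prior and 4 residual degrees of freedom), with Benjamini-Hochberg adjustment over the whole table and a threshold of 0.05. The number of arrays limits the precision. The procedure was tested on simulated data. Alternatives were a replicate block, quantile normalisation, median centring, scaling to hybridisation or poly-A controls, a minimum mean of 5 or 7, an intensity trend with robust prior, no probe sets with shared probes, averaged probe sets and each array left out.

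Members and lists were chosen with earlier results of these data known. Values per array are given for member genes past the threshold, those with a called probe set, the 12 of smallest p and the one of highest mean in each role. Of other pathway genes, the 2 of smallest p in each list are named.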

Additional observations from a re-analysis of the deposited data

How the results depend on the processing

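Scaling to array controls moved all counts, because these controls were lower on the BMP9 arrays. The hybridisation controls averaged 9.87 to 10.0 in BMP9 and 10.1 to 10.2 in control, and the poly-A controls 5.39 to 5.83 in BMP9 and 6.09 to 6.22 in control. Scaling to the hybridisation controls brought the median difference of all genes to 0.23. It called 9 member genes (8 higher, 1 lower), 25 member probe sets and 29 of the other pathway genes, among 4843 genes higher and 72 lower. Scaling to the poly-A controls brought that median to 0.55 and called 39 member genes, 93 member probe sets and 74 other pathway genes, all higher, among 16893 genes higher and 19 lower. On the other settings, member genes called numbered 2 with a minimum mean of 5 and with an intensity trend, and 1 elsewhere. Member probe sets called numbered 1 with a minimum mean of 7, at which 1 was tested, and 0 to 2 with an array left out, 0 without BMP9 replicate 2 or BMP9 replicate 3. Other pathway genes called numbered 1 with quantile normalisation, median centring or averaged probe sets (GPC4), 2 with a minimum mean of 5 (GPC6 and JUN), 3 with a minimum mean of 7 and 3 with an intensity trend (GPC4, GPC6 and JUN). With the replicate number as a block, 1 member gene, 2 member probe sets and 0 other pathway genes were called. Same-numbered arrays did not deviate together (correlations 0.0038, 0.046 and -0.021), so the numbers were not taken to pair the samples. Control scaling adds a shift to all genes, and for the other settings the cause of these changes was not tested.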
